A study of Mus musculus with 12 samples.

Results

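Uba1, Huwe1, Cul4b and Klhl13 are X-linked genes of the ubiquitin system. The data give the share of their RNA reads with and without listed variants during reprogramming of mouse fibroblasts. Their members were all single-base variants named for these 4 genes and covered by at least 20 reads, 89 sites of 5942 in named genes of the X chromosome (6488 with unnamed positions). Uba1 held 21 of them, Huwe1 48, Cul4b 8 and Klhl13 12. RNA was sequenced from cells reprogrammed with the Sendai virus vector SeVdp(fKOSMaB) and from mouse embryonic fibroblasts (MEF). MidK1 cells carried the vector and received 30 nM Shield1, a small-molecule ligand for destabilising domains that protects proteins carrying them, and were taken at days 35, 52 and 56. MidK2 cells carried the same vector with 30 nM Shield1 and were taken at days 18, 22, 29 and 36. LowK cells carried the vector without Shield1 and were taken at days 35, 52 and 56. MEF1 and MEF2 had neither vector nor Shield1 and stood at day 0. Each course and day was 1 library, so the tests on reads compared libraries, not conditions, and nothing given states whether MEF1 and MEF2 were separate cultures. The sources used here do not give the strains, the sex of the embryos or which parent each X chromosome came from.

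Ubiquitin is passed from an activating enzyme (E1) to a conjugating enzyme (E2) and then, with the help of a ligase (E3), to a substrate protein. Uba1 encodes the main E1 of the cell, Huwe1 a very large HECT-type E3 ligase, Cul4b the scaffold of a cullin-RING E3 ligase, and Klhl13 a substrate adaptor for Cul3-based ligases. In female cells 1 X chromosome is silenced, and reads from it return when it is reactivated, as happens on the way to pluripotency in the mouse.

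In build mm10 with the GENCODE M21 annotation, Uba1 (ENSMUSG00000001924.15) lies at X:20658326-20683179 on the plus strand and Huwe1 (ENSMUSG00000025261.17) at X:151800807-151935417 on the plus strand. Cul4b (ENSMUSG00000031095.15) lies at X:38533274-38576196 and Klhl13 (ENSMUSG00000036782.13) at X:23219271-23365082, both on the minus strand. All 89 sites were exonic and their reference base equalled that of the transcript at 89 of 89. Sites listed in at least 7 of the 12 libraries are called recurrent below, and those in fewer sporadic, a division chosen after the values were seen. Of the recurrent sites, 19 in Uba1 comprised 18 coding sites (13 synonymous, 5 missense) and 1 in an untranslated region (UTR). The 29 recurrent sites of Huwe1 were all coding, 28 of them synonymous. Cul4b had 5 coding, all synonymous, and 1 in the UTR, and Klhl13 had 3 coding, all synonymous, and 6 in the UTR.

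The following stretches of the sense strand show the coding sites of highest coverage in each gene, and 1 sporadic Huwe1 site for contrast. In Klhl13 some UTR sites weighed more, with up to 691 reads summed over libraries against 243 at the coding site shown. Each is 29 bases of the GENCODE M21 transcript with the reference base of the site in capitals at position 15, counted from the 5′ end.
Uba1 exon 26, X:20682457-20682485, C15T, G1045G: aacgatgaaagcggCgaggacgtcgaggt
Uba1 exon 25, X:20682133-20682161, C15T, G993G: atgctgtcccagggCgtgtccatgctcta
Huwe1 exon 80, X:151931781-151931809, C15T, I4200I: aatggagccaacatCttggtaacagagga
Cul4b exon 21, X:38538964-38538992, C15A, I880I: ttcaggataaagatCaatcaaatccagat
Klhl13 exon 7, X:23220795-23220823, C15T, F507F: gagctcatgtgcttCgaccctgatactga
Huwe1 exon 69 (sporadic), X:151921292-151921320, G15A, A3603A: ggcttggaagatgcGgccaatgtgttact
At the Uba1 exon 26 site, 263 of 541 reads lacked the variant T in MidK1 at day 56, against 37 of 328 in LowK at day 56 and 16 of 160 in MEF1. At the Huwe1 exon 80 site, 1 of 158 reads lacked the variant T in MidK1 at day 56, against 5 of 181 in LowK at day 56 and 2 of 56 in MEF1. These single sites thus differed between the genes in the way described for whole genes below. At the sporadic Huwe1 site, the only library that listed it was MidK2 at day 22, with 4 variant reads of 76.

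The measure used throughout is the reference share, the percent of reads over a gene's sites without the variant allele. In fibroblasts most reads of all measured members carried the variant, so a higher reference share means more reads from the allele little used there. Where both X chromosomes carry the variant, the share stays low whichever chromosome is active, so a low share alone does not show a silent allele. A rise could come from a larger share of cells that use both alleles or from more RNA of the second allele per cell, and these cannot be told apart in bulk RNA. The tables listed 3245 to 7991 variants per library, with 1507 to 3871 single-base sites of at least 20 reads and 138579 to 279031 reads of summed coverage. MEF1, MidK1 and LowK came from 1 set of tables and MEF2 and MidK2 from another with lower caller limits, and each reprogrammed library was set against the fibroblasts from the same set. Genes listed as fibroblast-expressed took 47.1 to 55.1 per 1000 reads of X-linked coverage in MidK1, 50.9 to 71.0 in MidK2 and 44.8 to 55.3 in LowK, against 473 to 501 in MEF. Genes of the pluripotency and germline list took 13.5 to 20.8 per 1000 in MidK1, 13.2 to 20.4 in MidK2 and 9.09 to 14.8 in LowK, against 4.13 to 5.35 in MEF. Only 2 to 4 of the 10 genes of that list were listed in a reprogrammed library, and 1 in each MEF library. The part of these differences in marker genes in the shares below was not tested.

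Uba1 gained reference reads in both Shield1 courses and few without Shield1. In the MidK1 course its reference share was 21.8%, 43.5% and 47.0% at days 35, 52 and 56 (95% Wilson intervals 19.8 to 24.0, 41.8 to 45.1 and 45.0 to 49.0). In the MidK2 course it was 4.44%, 17.7%, 19.0% and 22.5% at days 18, 22, 29 and 36, and 15.4% at day 22 over recurrent sites alone. In the LowK course it was 3.38%, 4.51% and 8.51% at days 35, 52 and 56, against 4.76% in MEF1 and 1.38% in MEF2. All MidK1 libraries and the last 3 of MidK2 lay above every LowK and MEF library, while MidK2 at day 18 lay within their range. The intervals cover counting error only, since molecular identifiers are lacking and 1 read can span several sites.

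Huwe1 stayed near the fibroblast level in all courses once sporadic sites were set apart. Over its recurrent sites the reference share was 3.06%, 2.53% and 4.56% in MidK1 at days 35, 52 and 56. It was 2.56%, 4.86%, 3.42% and 0.758% in MidK2 at days 18, 22, 29 and 36, and 0.962%, 1.60% and 2.44% in LowK at days 35, 52 and 56. The MEF libraries, at 4.19% in MEF1 and 0.686% in MEF2, spanned most of these values. Over all listed sites the same gene read 17.5%, 18.5%, 13.6% and 2.57% in the 4 MidK2 libraries and 18.1% in MEF2. The wide gap between these readings came from 19 sporadic sites, 15 of them missense, against 1 missense among 29 recurrent sites.

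Sporadic sites had few variant reads and stood close to the lowest variant percent that the caller listed. In the 4 genes their reference shares lay between 84.0% and 95% apart from 1 Huwe1 site at 25.0% in MidK1 at day 56. Over all named genes, 58.4% of 2416 sporadic sites had a median reference share above 80%, against 1.11% of 3526 recurrent sites. In Huwe1 they numbered 5, 6, 4 and 1 in MidK2 at days 18, 22, 29 and 36, 6 in MEF2 and at most 1 in any library of the other set. Their count was thus higher in the set with lower caller limits except in MidK2 at day 36. The part of the caller limits and of other properties of the reads was not tested.

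**Figure D1:**
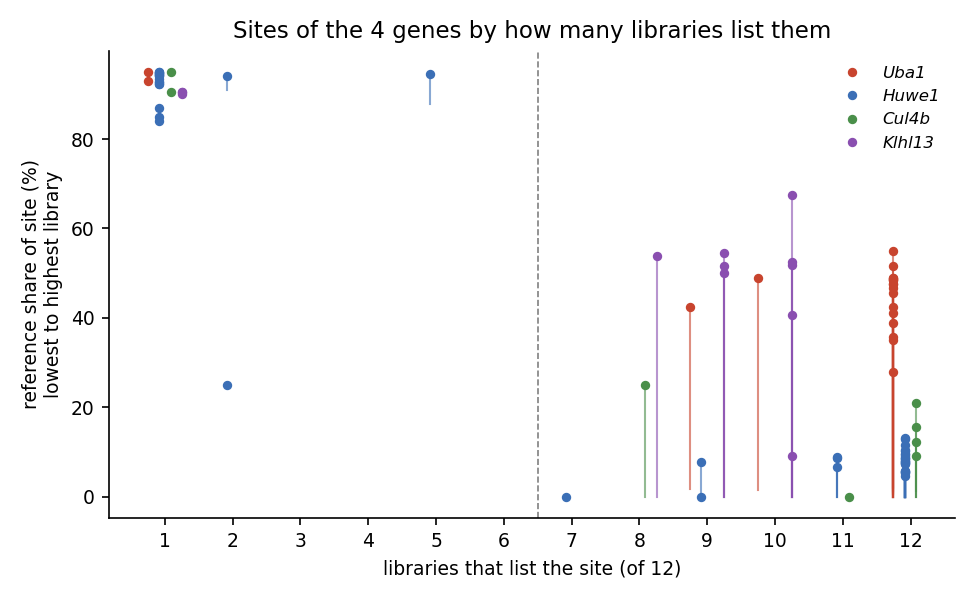
Reference share (percent of reads without the variant allele) of each site of the 4 genes, from its lowest to its highest library (line) with the highest marked (point), against the number of libraries of 12 that list it. The dashed line separates sporadic from recurrent sites, and the sporadic sites cluster at 84.0% to 95% while recurrent Huwe1 sites stay at or below 13.04%.

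Cul4b moved little. Its reference share was 5.57%, 6.99% and 7.38% in MidK1 at days 35, 52 and 56 and 2.44%, 1.59% and 5.10% in LowK at the same days. In MidK2 it was 3.87%, 7.89%, 7.14% and 3.05% over recurrent sites at days 18, 22, 29 and 36, against 3.497% in MEF1 and 2.33% in MEF2. At day 22 of MidK2, 2 sporadic sites lifted the share over all sites to 23.2%. With 143 to 420 reads per library, the Wilson interval of MidK1 at day 56 ran from 5.25% to 10.3% and that of MEF1 from 1.503% to 7.92%, so they overlapped.

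Klhl13 had no site of at least 20 reads in either MEF library, so its change from fibroblasts could not be measured. Its reference share was 15.2%, 42.2% and 54.4% in MidK1 at days 35, 52 and 56 (intervals 9.70 to 23.0, 36.5 to 48.2 and 47.5 to 61.0). In MidK2 it was 3.38%, 4.34%, 3.96% and 7.03% over recurrent sites at days 18, 22, 29 and 36, and 9.15%, 9.26%, 3.96% and 10.3% over all sites. In LowK it was 0.719%, 1.76% and 3.81% at days 35, 52 and 56. The MidK1 libraries stood above all others. At day 56 the order of the genes in MidK1 was Klhl13, Uba1, Cul4b, Huwe1, where the intervals of neighbours overlapped for Klhl13 and Uba1 and for Cul4b and Huwe1.

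**Figure D2:**
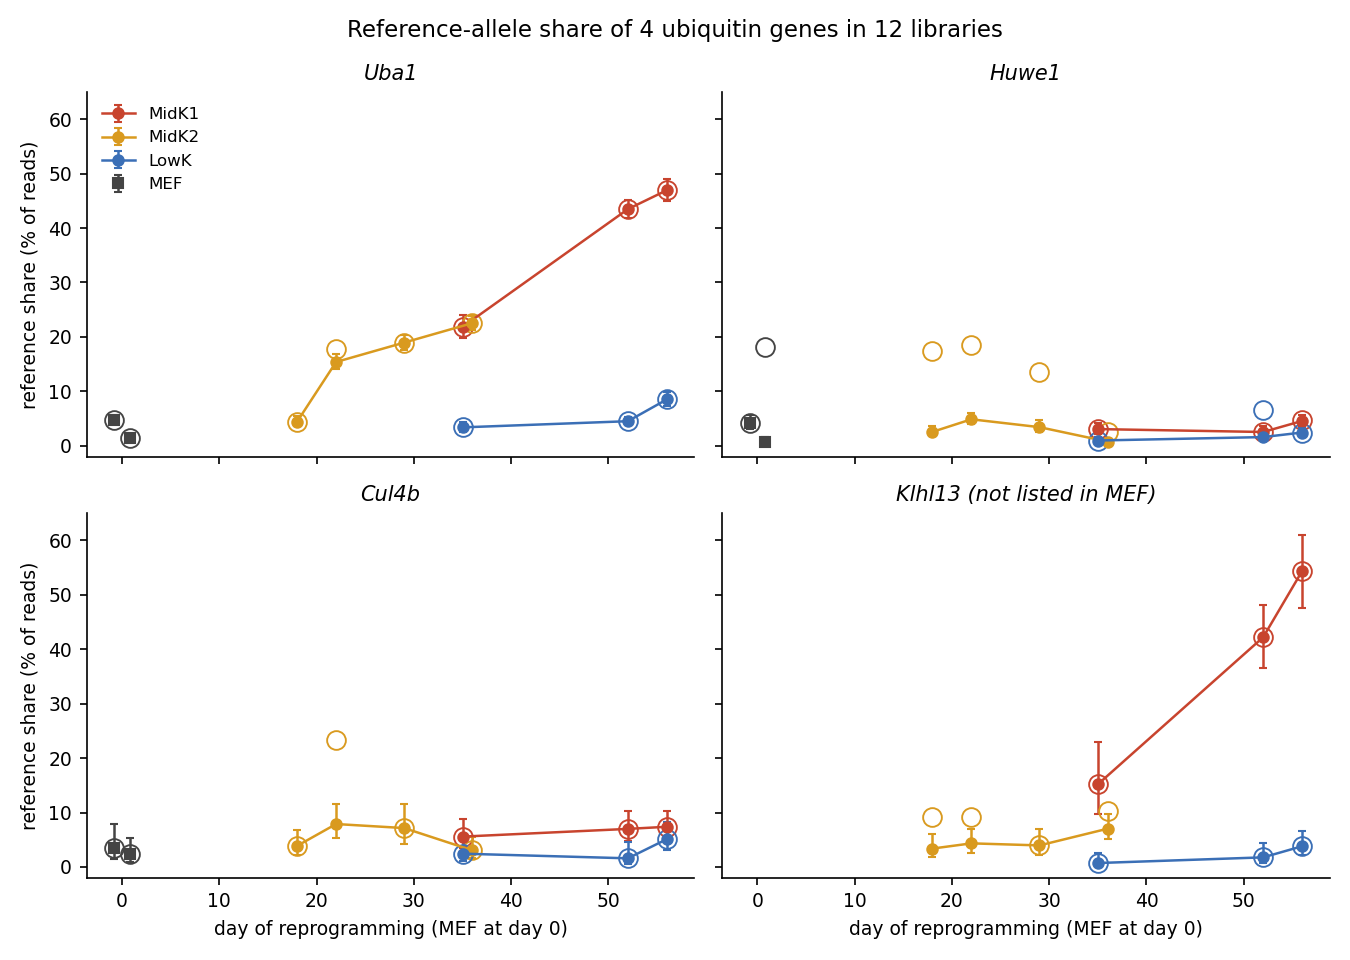
Reference share (percent of reads) of the 4 genes by day, with MEF1 (left) and MEF2 (right) at day 0. Filled symbols with 95% Wilson intervals are recurrent sites and open circles all listed sites. Uba1 and Klhl13 reach 47.0% and 54.4% in MidK1 at day 56, Huwe1 and Cul4b stay below 8% over recurrent sites, and the open circles far above filled ones mark sporadic sites.

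Part of the low Klhl13 signal in MidK2 consisted of reads that carried neither base. At the UTR site X:23219719, the most covered of the gene, MidK2 had 8 of 106, 10 of 97, 10 of 111 and 20 of 163 reads without the variant at days 18, 22, 29 and 36. Of these, 10, 8 and 11 reads at days 22, 29 and 36 were listed with a 1-base deletion instead. Without that site the share in MidK2 was 1.05%, 2.01%, 0.599% and 4.36% at days 18, 22, 29 and 36. The same step left 13.1%, 41.3% and 51.5% in MidK1 at days 35, 52 and 56, and 0.813%, 1.52% and 2.53% in LowK. The gap between MidK1 and the other courses was thus present with and without the site.

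Comparisons with fibroblasts used sites listed in both libraries, and a call needed a gap of 20 percentage points or more together with an adjusted p below 0.05 (two-sided Fisher's exact test on summed reads, Benjamini-Hochberg over all genes of the pair). Uba1 was called higher in 3 of 10 comparisons, and Huwe1 and Cul4b in 0 of 10 each. The share of all genes called higher was 8.50%, 12.9% and 14.1% in MidK1 at days 35, 52 and 56. It was 1.59%, 9.63%, 9.94% and 10.4% in MidK2 at days 18, 22, 29 and 36, and 1.23%, 1.76% and 4.91% in LowK at days 35, 52 and 56. Uba1 rose in MidK1 at day 52, with 43.5% against 4.76% in MEF1, a difference of 38.7 points (Newcombe 95% interval 36.8 to 40.5, two-sided Fisher's exact test, p adjusted by Benjamini-Hochberg = 4.55e-283). At day 56 the shares were 47.0% in MidK1 and 4.56% in MEF1, a difference of 42.4 points (40.2 to 44.5, same exact test, adjusted p = 3.54e-266), where the median difference of all genes was 3.88 points. In MidK2 at day 36 they were 22.5% against 1.38% in MEF2, 21.2 points (19.9 to 22.5, same exact test, adjusted p = 4.41e-187). That last call was lost against MEF1, which belongs to the other set of tables (17.8 points).

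Differences that missed the 20-point limit were graded. Uba1 stood 17.1 points above MEF1 in MidK1 at day 35, and 3.15, 14.02 and 17.6 points above MEF2 in MidK2 at days 18, 22 and 29. In LowK its difference from MEF1 was -1.29 and -0.250 points at days 35 and 52 and 3.92 points at day 56. Against the 42.4 points of MidK1 on the same day, the gap between both differences was 38.5 points (interval 35.8 to 41.1). Huwe1 differences ran from -3.43 to 4.96 points and Cul4b differences from -1.91 to 6.15 points. Small differences of Huwe1 passed the p threshold alone, lower in all 3 LowK libraries against MEF1 and higher in MidK2 at days 18, 22 and 29 against MEF2. With recurrent sites only, that at day 18 was 1.36 points (two-sided Fisher's exact test, p adjusted by Benjamini-Hochberg = 0.0603). The difference of MEF2 minus MEF1 was itself -3.39 points in Uba1 and -3.81 points in Huwe1, and 0% of 174 genes were called between these 2 libraries.

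The contrast between the genes was measured as the difference of their changes. In MidK1 at day 56 against MEF1, the change of Uba1 exceeded that of Huwe1 by 42.0 points (interval 39.4 to 44.8) and that of Cul4b by 38.1 points (33.8 to 43.5). In MidK2 at day 36 against MEF2, it exceeded that of Huwe1 by 21.1 points (19.7 to 22.7) and that of Cul4b by 20.4 points (17.1 to 24.3). In MidK2 at day 18 the interval for Uba1 minus Huwe1 contained 0 (-1.11 points, -3.49 to 1.41). In LowK at day 56 Uba1 exceeded Huwe1 by 5.68 points (3.64 to 7.93), a small gap in which Huwe1 was below MEF1.

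Over the reprogrammed libraries as a group and all listed sites, none of the 3 genes listed in MEF stood apart from the fibroblasts in every library. Uba1 averaged 19.2% ± 15.6 in reprogrammed libraries and 3.07% ± 2.39 in MEF (SD, n = 10 and 2), a difference of 16.2 points (exact permutation test, two-sided, p = 0.197, smallest possible 0.0152). The reprogrammed libraries are serial days of courses with and without Shield1, not replicates of 1 condition. Their SD spans courses and days, and the permutation tests treat them as exchangeable. The Uba1 difference was also taken within each set of tables. It was 16.7 points within the tables that include MEF1 and 14.5 points within those that include MEF2. Cul4b differed by 3.73 points (p = 0.303) and Huwe1 by -3.90 points (p = 0.576) in the same exact permutation test. Over recurrent sites Cul4b differed by 2.19 points (exact permutation test, p = 0.242), and Huwe1 by 0.238 points (p = 0.788), with 0.686% in MEF2 against the 18.1% there over all listed sites. Uba1 differed by 15.9 points over recurrent sites (exact permutation test, p = 0.182). Of 142 genes, 8.45% had all reprogrammed libraries above both MEF libraries (15.5% over recurrent sites), and Uba1, Huwe1 and Cul4b were not among them on either reading.

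Shield1 was addressed by MidK1 against LowK at the same days, both from the same set of tables. Uba1 and Klhl13 were each called higher in 2 of 3 days and Huwe1 and Cul4b in 0 of 3, where 7.23%, 8.61% and 8.64% of all genes were called higher at days 35, 52 and 56. Uba1 had 22.0% in MidK1 and 3.42% in LowK at the shared sites of day 35, 18.6 points apart and just under the size limit. At day 52 it had 43.5% in MidK1 and 4.51% in LowK, 39.0 points apart (37.1 to 40.8), and at day 56 47.0% and 8.54%, 38.4 points apart (36.0 to 40.8, two-sided Fisher's exact test, p adjusted by Benjamini-Hochberg = 2.41e-165). Klhl13 had 15.2% in MidK1 and 0.694% in LowK at day 35, 14.5 points apart and not called. At day 52 it had 42.2% in MidK1 and 1.76% in LowK, 40.5 points apart (34.1 to 46.5, same exact test, adjusted p = 1.26e-29). At day 56 it had 54.4% in MidK1 and 4.17% in LowK, 50.2 points apart (42.6 to 57.1, same exact test, adjusted p = 7.44e-34). The Klhl13 values rested on 4, 8 and 5 shared sites at days 35, 52 and 56.

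Huwe1 differed between MidK1 and LowK by 2.08, 0.980 and 2.16 points at days 35, 52 and 56, and Cul4b by 3.13, 5.72 and 2.28 points. The Huwe1 differences at days 35 and 56 passed the p threshold alone, as did that of Cul4b at day 52 (two-sided Fisher's exact test, p adjusted by Benjamini-Hochberg = 0.0209). At day 56 the change of Klhl13 exceeded that of Huwe1 by 48.1 points (40.4 to 55.1), and that of Uba1 exceeded it by 36.3 points (33.6 to 38.9). Between the pair that rose, the change of Uba1 minus that of Klhl13 was -11.8 points at day 56 (-19.1 to -3.81), while at days 35 and 52 the interval of their difference contained 0. With days as units, Uba1 averaged 37.4% ± 13.6 in MidK1 and 5.47% ± 2.70 in LowK (SD, n = 3 each), and Klhl13 37.3% ± 20.1 and 2.10% ± 1.57. These are serial days of a course, not independent replicates. Over all listed sites, all MidK1 days lay above all LowK days for Uba1, Klhl13 and Cul4b, as for 27.9% of 219 genes. The days of Huwe1 overlapped there (exact permutation test, two-sided, p = 0.9), with 6.52% in LowK at day 52, where 1 sporadic site had 80 reference reads of 91 and the recurrent sites gave 1.60%. Over recurrent sites all 4 genes had every MidK1 day above every LowK day, as had 28.9% of 218 genes, and the exact permutation test gave p = 0.1 for each, the smallest that 3 against 3 allows. Over recurrent sites the mean difference was 31.95 points for Uba1, 35.2 for Klhl13, 3.61 for Cul4b and 1.72 for Huwe1. Paired by day over recurrent sites, the difference was positive in 3 of 3 days for each gene (exact sign-flip permutation test, p = 0.25, the smallest that 3 days allow).

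**Figure D3:**
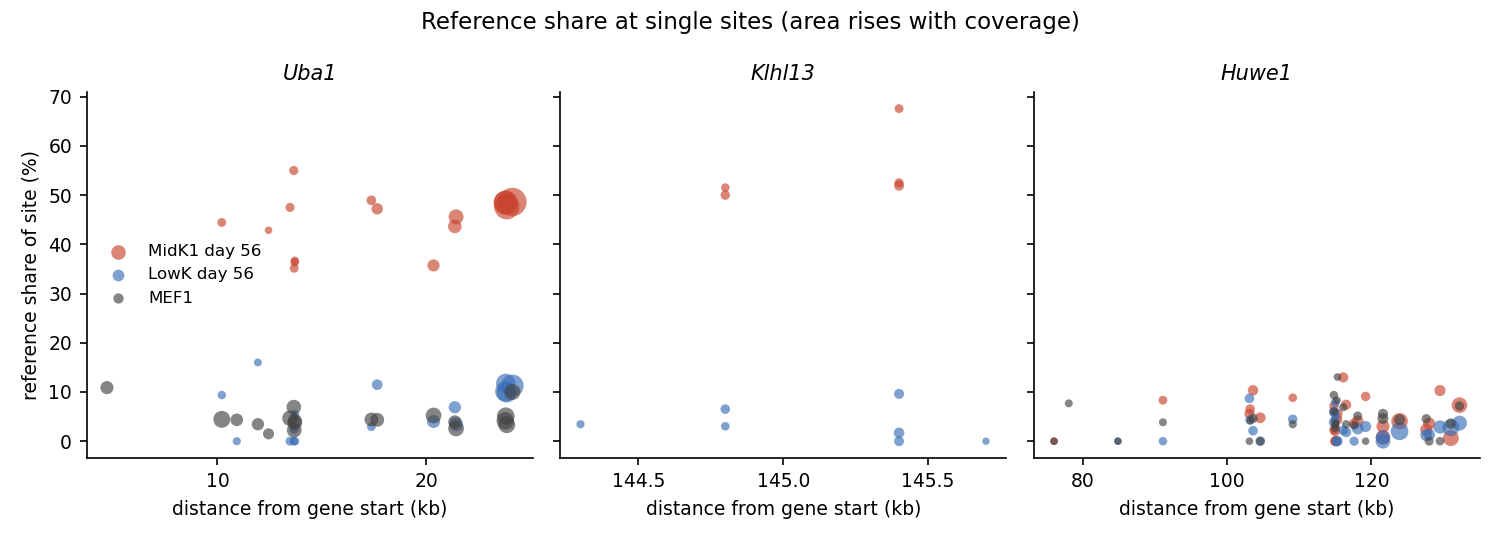
Reference share of single recurrent sites (percent of reads) against distance from the gene start, for MidK1 at day 56, LowK at day 56 and MEF1, with point area rising with coverage. Uba1 sites in MidK1 lie between 35.1% and 55.0%, Klhl13 sites between 50% and 67.6%, and Huwe1 sites overlap between the libraries. The highest Klhl13 site is X:23219719, where deletion reads were listed in MidK2, and the next lies at 52.5%. Klhl13 has no MEF1 points because it was not listed there.

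The rise was shared by the sites along Uba1 and by the measured sites of Klhl13. In MidK1 at day 56 the 16 Uba1 sites lay between 35.1% and 55.0% (median 46.4%), while the 17 in LowK at day 56 lay between 0% and 16% (median 5.41%) and the 19 in MEF1 between 1.49% and 10.9% (median 4.35%). No Uba1 site in MidK1 at day 56 fell within the range of either of those libraries. The 5 Klhl13 sites in MidK1 at day 56, all in the UTR part of exon 7, lay between 50% and 67.6%. The highest was X:23219719, where deletion reads were listed in MidK2, and the next was 52.5%. At day 52 its 8 sites lay between 21.1% and 54.6%, and the lowest were the UTR sites X:23220273 and X:23220282, at 21.1% and 21.4%, against 40.6% to 54.6% at the other 6. Both lie next to each other and can share reads.

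Coverage was weighted to the 3′ end of Uba1, and the share was slightly higher there. The 4 sites of exons 25 and 26 had 48.3% in MidK1 at day 56 and the inner sites 43.6%. The same pair of values was 24.3% and 20.8% in MidK2 at day 36, 10.8% and 4.82% in LowK at day 56, and 5.48% and 4.48% in MEF1. The 3′ sites were higher in 11 of 12 libraries, and in 3 of them the intervals did not overlap (MidK1 at day 35, MidK2 at day 18 and LowK at day 56). Mean coverage of inner sites was 0.113 to 0.343 of that at the 3′ sites in reprogrammed libraries, against 0.669 in MEF1 and 0.386 in MEF2.

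Coverage relative to other X-linked sites was higher at each later day, as the share was, for Uba1 in MidK2 and for Klhl13 and Cul4b in MidK1. This did not hold for Uba1 in MidK1. At 11 sites listed in every library, Uba1 had 1.16, 2.36 and 1.81 times the mean coverage of all such sites in MidK1 at days 35, 52 and 56. In MidK2 it had 1.24, 1.48, 1.68 and 1.94 times that mean at days 18, 22, 29 and 36. It had 1.30, 1.81 and 1.23 times the mean in LowK at days 35, 52 and 56, where its share stayed at 8.51% or less, 1.56 times in MEF1 and 1.47 times in MEF2. Huwe1 had 0.478 to 0.826 times the mean in reprogrammed libraries, against 0.417 in MEF1 and 0.319 in MEF2. Cul4b had 0.830, 0.880 and 1.15 times the mean in MidK1 at days 35, 52 and 56, above its 0.544, 0.517 and 0.740 times in LowK, while its reference share stayed under 8%. Klhl13, over 3 sites listed in all 10 reprogrammed libraries, had 0.338, 0.414 and 0.478 times the mean in MidK1 at days 35, 52 and 56. It had 0.639 to 0.936 times the mean in MidK2 and 0.297 to 0.564 in LowK, at shares of 10.3% or less. In MidK2 at day 36, X:23219719 and X:23219730 had 163 reads each and X:23219650 had 67. The same sites had 52, 50 and 59 reads in LowK at day 56. The higher Klhl13 coverage in MidK2 thus lay mainly at X:23219719 and X:23219730, which are close neighbours, and is not shown for the gene as a whole. The part of coverage in the shares was not tested.

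Between successive days of a course, the step from day 35 to day 52 of MidK1 was the only one at which a gene of the 4 was called. Of 234 genes, 2.56% were called higher there, and Uba1 and Klhl13 were among them. At the other steps 0.424% were called higher in MidK1 at day 56 against day 52, 1.23% and 0.395% in LowK at days 52 and 56, and 2.11%, 0.357% and 0.345% in MidK2 at days 22, 29 and 36, each against the day before it in the course. At shared sites Uba1 had 43.8% at day 52 and 21.8% at day 35, 21.9 points apart (19.2 to 24.6, two-sided Fisher's exact test, p adjusted by Benjamini-Hochberg = 7.30e-48). Klhl13 had 41.7% at day 52 and 15.2% at day 35, 26.5 points apart (15.7 to 36.2, same exact test, adjusted p = 6.29e-05). No Klhl13 site had 50 reads in both of these libraries, so that comparison could not be tested at the higher coverage minimum. From day 52 to 56, Klhl13 differed by 15.8 points (same exact test, adjusted p = 0.0115) and Uba1 by 3.26 points (same exact test, adjusted p = 0.0570), neither past the size limit. In MidK2 the largest step of Uba1 was the 11.1 points between days 22 and 18, with 3.59 and 3.57 points at the following steps.

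The courses with Shield1 could be compared at nearly the same day, MidK2 at day 36 and MidK1 at day 35. Of 246 genes, 2.44% were called in either direction and none of the 4 was among them, although the tables belong to different sets. Uba1 had 22.4% in MidK2 and 21.8% in MidK1 at shared sites, a difference of 0.570 points (-1.92 to 2.97). Klhl13 had 8.40% in MidK2 and 16.3% in MidK1, a difference of -7.91 points (-17.1 to -0.977, two-sided Fisher's exact test, p adjusted by Benjamini-Hochberg = 0.0790). Huwe1 differed by -2.46 points (-3.61 to -1.48, same exact test, adjusted p = 6.43e-06), past the p threshold alone, and Cul4b by -2.33 points (-5.82 to 1.01, same exact test, adjusted p = 0.321).

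The wider pathway was read from a list of 34 X-linked ubiquitin genes, of which 21 were measured in some library and 10 in all 12. Against fibroblasts, 2 of 10 measured were called higher in MidK1 at day 52 and 3 of 10 at day 56, 1 of 12 in MidK2 at day 36, 1 of 13 in MidK2 at day 22 and 0 in the other 6 comparisons. Over all genes 12.9% and 14.1% were called higher in MidK1 at days 52 and 56, and 9.63% and 10.4% in MidK2 at days 22 and 36, and beside these shares the counts of 1 to 3 genes give no result about the pathway as a whole. The pathway median difference was 2.07 points in MidK1 at day 56, against 3.88 over all genes, 7.83 against 7.95 points in MidK2 at day 22, and 6.49 against 6.24 points in MidK2 at day 29. At those days of MidK2 several genes stood 10 points or more above MEF2 without a call, at day 29 Usp9x by 18.8, Uba1 by 17.6, Otud5 by 16.3, Ube2a by 15.3 and Rlim by 10.2 points. The list holds 13 genes that were measured in no library.

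Deubiquitinases remove ubiquitin, and among those tested against fibroblasts Usp9x changed most there. It rose in MidK1 to 27.1% at day 52 and 32.3% at day 56, against 6.60% and 6.36% in MEF1 at the same sites, 20.5 and 26.0 points higher (two-sided Fisher's exact test, p adjusted by Benjamini-Hochberg = 3.63e-16 and 3.98e-29). In MidK2 it stood 10.9, 18.0, 18.8 and 19.1 points above MEF2 at days 18, 22, 29 and 36, under the size limit. The change of Uba1 minus that of Usp9x was -7.72 points in MidK2 at day 18 (-10.8 to -4.78) and 16.4 points in MidK1 at day 56 (11.7 to 21.2). Otud5, another deubiquitinase, had 23.7% in MidK1 at day 56 and 1.94% in MEF1, 21.7 points higher (same exact test, adjusted p = 8.06e-07). Alg13, a protein glycosylation gene listed here for an OTU-type domain, was called between MidK1 and LowK at day 35, with 34.2% and 10.8%. At days 52 and 56 it was 9.69 and 9.88 points higher in MidK1 and not called, with 26.3% and 26.2% in LowK. It could not be tested against MEF. Usp11 differed by at most 8.47 points in any of its 6 comparisons with LowK or MEF2, none of them called.

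Among the ligases and E2 enzymes, Rnf128 was the only gene called besides Klhl13, in MidK2 at day 22 against MEF2 and against day 18, at a single site with 8 of 22 reference reads against 0 of 22 in MEF2. The E3 genes Rlim, whose product promotes Xist expression, Pja1 and Xiap and the E2 gene Ube2a had 0 calls in any comparison. Between MidK1 and LowK the differences of Rlim ran from -0.372 to 0.487 points over the 3 days those of Pja1 from -0.802 to 3.71 points and those of Xiap from -1.06 to 3.64 points. Ubqln2, a shuttle to the proteasome, ranged from 0.562 to 1.37 points and Psmd10, a proteasome assembly chaperone, from 1.05 to 6.46 points. Of 16 pathway genes tested per day, 1, 2 and 3 were called higher at days 35, 52 and 56, against 7.23%, 8.61% and 8.64% of all genes. Beside these shares such counts give no result about the pathway as a whole.

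**Figure D4:**
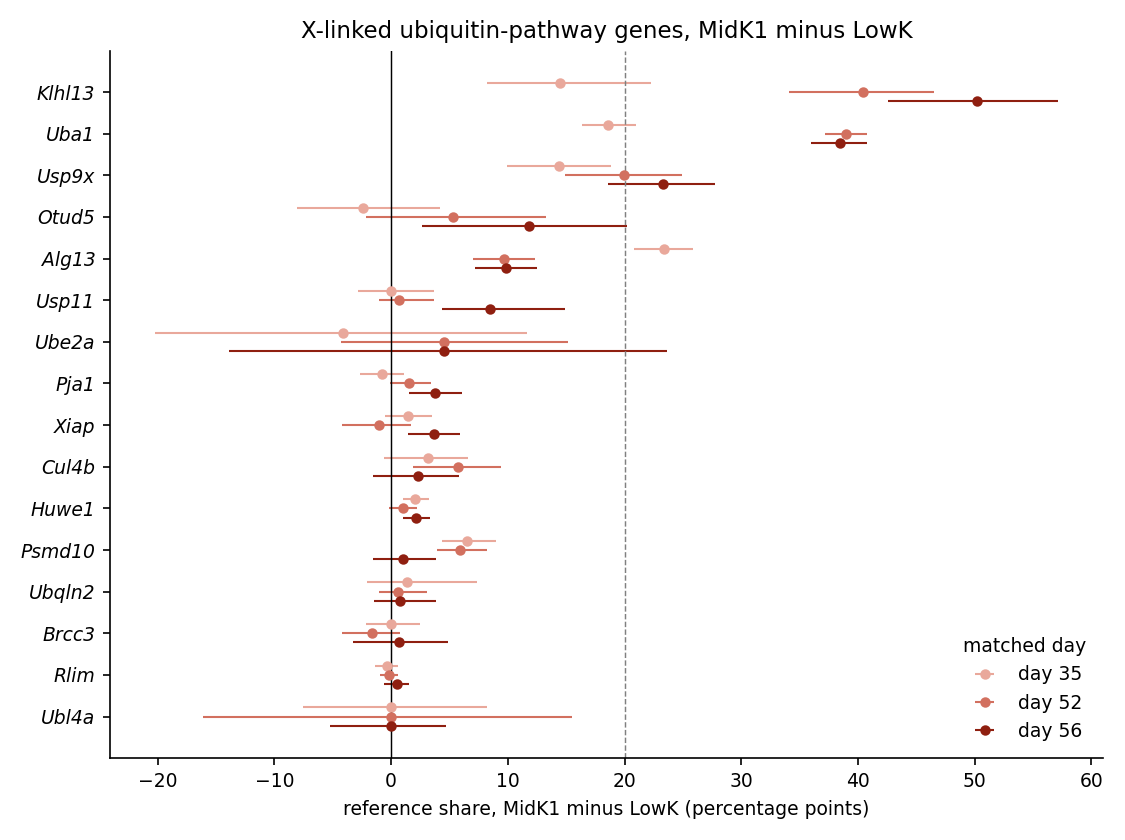
Difference in reference share (percentage points, MidK1 minus LowK, 95% Newcombe intervals for counting error) of 16 X-linked ubiquitin-pathway genes at days 35, 52 and 56. The dashed line is the 20-point size limit. Klhl13 and Uba1 lie at 40.5 and 39.0 points at day 52, Usp9x at 23.3 points at day 56, and most others within 12 points of 0.

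The genes nearest to the 4 on the chromosome were measured in the same way. Next to Uba1, Rbm10 lies 7.43 kb towards lower coordinates and differed by -0.502 points between MidK1 at day 56 and MEF1, at 1 site. Over 4 sites it had 9.22% in MidK1 and 1.90% in LowK at day 56, 7.31 points apart (3.02 to 12.05, two-sided Fisher's exact test, p adjusted by Benjamini-Hochberg = 0.00411), where Uba1 differed by 38.4 points. Cdk16, 4.78 kb away on the other side, differed by 17.9 points (11.8 to 23.6, two-sided Fisher's exact test, p adjusted by Benjamini-Hochberg = 3.52e-07), and in MidK2 at day 36 by 1.76 points where Uba1 differed by 21.2. Next to Cul4b, Lamp2 was called 27.2 points higher in MidK1 at day 56 at 76.8 kb distance, while Mcts1 at 24.4 kb had 15.4% in both libraries at 1 site. Next to Huwe1, Hsd17b10 at 66.4 kb differed by 5.08 points (-1.39 to 14.9). Phf8 at 166.9 kb had 20.97% in MidK1 at day 56 and 34.1% in MEF1, a difference that was not called. In MidK2 at day 36 it had 56.8% against 39.3% in MEF2, 17.5 points higher over 8 sites (two-sided Fisher's exact test, p adjusted by Benjamini-Hochberg = 4.84e-05) and under the size limit. The nearest measured gene to Klhl13 was Timp1 at 2345 kb, which was called higher against MEF1 but differed by 3.32 points between MidK1 and LowK at day 56. On the other side Dock11, at 12524 kb, differed by 15.2 points between MidK1 and LowK at day 56 over 3 sites and was not called.

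Genes whose shares were most like those of the 4 were ranked by the mean absolute difference over the libraries in common, as a description. For Uba1 these were Ftsj1 (5.18 points over 12 libraries), Timm17b (6.22 over 12) and Klhl13 (6.58 over 10). For Klhl13 they were Uba1, Ftsj1 (8.70 over 10) and Porcn (9.27 over 10). For Huwe1 they were Pdzd11 (2.26 points), Htatsf1 (3.05) and Nsdhl (3.09), and for Cul4b Pgrmc1 (1.56), Igbp1 (1.84) and Ndufb11 (1.91), each over 12 libraries. The closeness is smaller in points for the genes with low shares throughout, since little room was left to differ.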

How the data were processed

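Per the series description, the authors listed variants by CLC Genomics Workbench (Basic Variant Call). The submitters' processing notes name build mm10, and the aligner, read filters and caller settings are not stated in the sources used here. Per the labels' protocols, libraries were made from 500 ng of total RNA by poly(A) selection and a directional kit, and reads were paired, of 76 bases. Per the file headers, each deposited row holds the count of reads with the variant and the coverage, neither normalised, and the percent of reads with the variant. Positions without variant reads are not listed.

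Single-base variants with coverage of at least 20 reads were kept, with the gene name of the tables. Pairs of libraries were compared at sites with the same allele in both (Fisher's exact test, Benjamini-Hochberg adjustment over all genes, adjusted p under 0.05 and at least 20 points). Shares have Wilson intervals, differences Newcombe intervals, and differences of differences intervals built from those. Group means used exact permutation tests. The test was tried on simulated data. Besides the 4 members, the genes named are pathway genes called against MEF or LowK, those not called but measured in all 12 libraries, the 3 genes most like each member, and the nearest gene on each side measured in at least 10 libraries. Usp11 and Ube2a fall outside this rule and were named after their values were seen. The members and lists were chosen with earlier results of these data known. Alternatives were 10 or 50 reads, a 10-point limit, 1 site per gene, sites 100 bases apart, sites of either library, the other MEF library, left-out libraries and, added after seeing the data, recurrent sites alone, pairing by day and Klhl13 without its deletion site. Python 3.11.15, pandas 2.3.3, SciPy 1.17.1 and NumPy 2.4.6 were used.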

Additional observations from a re-analysis of the deposited data

Results flagged for a closer look

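Several effects differed between days or courses by more than the interval of their difference and by at least 20 points. The difference of Uba1 between MidK1 and LowK was 20.4 points larger at day 52 than at day 35 (interval 17.4 to 23.3). For Klhl13 it was 26.0 points larger at day 52 than at day 35 (15.9 to 34.7) and 35.7 points larger at day 56 than at day 35 (24.8 to 45.1). The difference of Uba1 from MEF1 was 38.5 points larger in MidK1 than in LowK at day 56. Its difference from MEF2 in MidK2 at day 36 minus its difference from MEF1 in MidK1 at day 56 was -21.2 points (-23.8 to -18.7), between libraries of unlike days and table sets. These intervals cover counting error only.

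A 1-base insertion in the Klhl13 UTR, between X:23220241 and X:23220242, lay outside the single-base sites and was listed in 8 reprogrammed libraries. The percent of reads without it was 14.3, 35.0 and 64.0 in MidK1 at days 35, 52 and 56 and 41.7 and 52.4 in MidK2 at days 22 and 36. In LowK it was 30.6, 39.3 and 16.7 at days 35, 52 and 56. Each value rests on 21 to 50 reads. Unlike the single-base sites of the gene, these values were not low in LowK.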

How the results depend on the processing

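Of 524 single comparisons recomputed under the alternatives, 21 changed sign with an adjusted p under 0.05 on either side. Of the rest, 491 kept their side of the threshold, 11 gained a call and 1 lost it. Within those 491, 24 changed sign with neither p under the threshold. No paired analysis was possible because the labels give no replicate numbers that pair libraries across groups. Matched days of MidK1 and LowK could be paired, an alternative chosen after seeing the data, and no call changed, since 3 days allow no p below 0.25. Against the other MEF library, Uba1 in MidK2 at day 36 lost its call (17.8 points) and MidK1 at day 35 gained one (20.7).

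With at least 50 reads per site, the pathway list had 4 calls in 62 gene comparisons with MEF, against 7 in 109 in the report. Between successive days it had 1 call in 73, against 3 in 113, so fewer comparisons could be tested. Klhl13 could be tested at 1 day against LowK, where it was called (1 call), and at 3 successive steps, all in MidK2, with 0 calls. Its called step in MidK1 could not be tested. With a 10-point limit Uba1 had 6 calls in 10 comparisons with MEF. The list had 25 calls in 109 gene comparisons with MEF and 11 in 48 with LowK. Between successive days Uba1, Klhl13 and the list had 2, 2 and 6 calls, of 7, 7 and 113 tested. With sites listed in either library, Cul4b gained 1 call against MEF, and the list had 16 against MEF and 13 between successive days. Those sites need not be in both libraries, so sporadic sites enter on 1 side. The share of all genes called is not given for these alternatives, so the counts of the list give no result about the pathway as a whole.

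Signs changed as follows, in points. Uba1 in MidK2 at day 36 minus MidK1 at day 35 became -0.0712 (50 reads), -0.283 (1 site) and -0.0411 (spaced sites). Cul4b in MEF2 minus MEF1 became 1.19 (50 reads, and 1 site) and 0.503 (spaced). With 1 site, Cul4b in MidK2 at day 22 minus MEF2 became -3.08 and Huwe1 in MidK1 at day 56 minus day 52 -0.716. With sites of either library, Huwe1 became 2.33 in LowK at day 52 minus MEF1, -0.633, -4.50 and -15.5 in MidK2 at days 18, 29 and 36 minus MEF2, -3.99 in MidK1 minus LowK at day 52, -4.08 in LowK at day 56 minus day 52 and 13.9 in MEF2 minus MEF1, and Cul4b -16.1 in MidK2 at day 29 minus day 22. Against the other MEF library, Uba1 became 2.16 and 3.14 in LowK at days 35 and 52 and -0.0294 in MidK2 at day 18. Huwe1 became 0.0834, 2.66 and 1.23 in LowK at days 35, 52 and 56, 2.56 and 2.14 in MidK1 at days 35 and 52, and -1.81, -1.12 and -3.64 in MidK2 at days 18, 29 and 36. With recurrent sites, Huwe1 in MidK2 at day 22 minus day 18 became 2.42.

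The mean difference of Huwe1 between reprogrammed and MEF libraries became 3.96 (50 reads), 0.0313 (sites of every library) and 0.238 (recurrent sites), and ran from -10.8 to 3.06 with either MEF library left out. Its MidK1 minus LowK mean became -0.141 (50 reads) and ran from -0.944 to 2.24 with 1 day left out. The cause of these changes was not tested. Depth limits Klhl13 and Cul4b most, with 112 to 504 and 143 to 420 reads per library.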
